A study of Mus musculus with 4 samples.

Results

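The genes described here are those of the major histocompatibility complex (MHC) class II and their transactivator, 8 in all: H2-Aa, H2-Ab1, H2-Eb1, H2-DMa, H2-Oa, H2-Ob, Cd74 and Ciita. They were followed in mouse leukemic cells on Affymetrix whole-genome expression arrays, through every probe set that the platform's annotation assigns to a single one of these symbols. These are 8 of 18193 genes with such a probe set, and they have 16 of the 45037 probe sets that are not controls. A further probe set that lists a member together with another gene was left out by this rule.

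The cells carried the MLL-AF9 leukemic fusion gene. They had been transplanted into C57BL/6 mice, and leukemic cells were purified from the marrow of these recipients. The Ezh2 KO group held 2 samples whose genotype entry reads Ezh2 KO, and the WT group held 2 samples entered as wild type, each on its own 1-colour array. Ezh2 is the histone methyltransferase of the Polycomb complex PRC2. A protocol entry of the knockout samples names Ink4a-/-Arf-/- marrow as the graft, so the labels leave it uncertain whether the groups also differ at that locus. The Ezh2 probe set read 4989 and 4991 on the Ezh2 KO arrays and 5216 and 5315 on the WT arrays, but its position relative to the deleted part is not known here, so it checks nothing about the labels. The age of the mice, the strain of the transplanted cells, the time of collection and the way Ezh2 was deleted are not given in the sources used here. Whether a group's samples are from different animals or leukemias is not told by the labels either. P-values therefore cover the spread among these 4 samples alone, and that spread may be technical.

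MHC class II molecules are heterodimers of an alpha and a beta chain that present peptides from endosomes to CD4+ T cells. B cells, dendritic cells and activated macrophages carry them in quantity, whereas most other cells make them only after exposure to interferon gamma. The invariant chain Cd74 escorts new class II molecules to the endosome, H2-DM exchanges the remnant of Cd74 for peptide, and H2-O restrains H2-DM. Ciita is the coactivator that switches on this gene set. It does not bind DNA itself but docks on factors bound to the X and Y boxes of the class II promoters.

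The letters of these boxes are shown as a feature that the rule choosing the members did not use. Promoters of 300 bases, reaching from 250 before a gene's start to 50 after it, were taken from a table of RefSeq sequences on build GRCm38.p6. Of the 7 members looked for, 5 were matched in that table, with 6 starts in all, and the eighth, Cd74, was not searched. The motifs searched on both strands were GCAAC, the core of the X box, and ATTGG, the Y box read as the reverse of CCAAT. They were chosen after the sequences had been seen. In 4 members GCAAC was followed on the same strand by ATTGG after a gap of 25 to 28 bases. The stretches below hold the motifs in capitals with 20 bases on either side, written 5′ to 3′ on the strand of the gene.
H2-Aa: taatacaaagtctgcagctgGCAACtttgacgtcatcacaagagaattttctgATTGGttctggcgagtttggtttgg
H2-Eb1: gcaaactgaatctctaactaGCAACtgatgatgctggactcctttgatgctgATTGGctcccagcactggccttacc
H2-Oa: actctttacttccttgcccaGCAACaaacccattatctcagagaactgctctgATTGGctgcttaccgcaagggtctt
H2-Ob: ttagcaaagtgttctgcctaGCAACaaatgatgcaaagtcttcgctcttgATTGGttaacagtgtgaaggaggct

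The H2-Aa stretch lies at chr17:34287847-34287924 on the minus strand. Those of H2-Eb1, H2-Oa and H2-Ob lie on the plus strand at chr17:34305756-34305832, chr17:34092283-34092360 and chr17:34238798-34238872. Of 32851 promoters in the table, 35.2% held GCAAC and 37.4% held ATTGG on either strand. The pair in this order, with a gap of 15 to 35 bases, stood in 1.02%. Neither of the H2-DMa starts held the pair, which says only that these letters are absent from those windows.

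Values are the deposited probe set intensities, on a linear scale that had been set to the same trimmed mean on every array. Probe sets differ in brightness for the same amount of RNA, so levels are compared between groups only within a probe set. Detection calls were not used here. Probe sets were tested where their mean intensity exceeded 21.9, the 30th percentile, which left 25580 probe sets with 1 symbol and 13 of the 16 member probe sets. Changes are given as log2 differences, Ezh2 KO minus WT, of intensity plus a pseudocount of 16, which understates the change of dim probe sets. Fold changes are taken from these log2 differences, so they are not the ratios of the printed intensities. A probe set was called changed at an adjusted p under 0.05 from limma with Benjamini-Hochberg adjustment over all 25580.

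By this rule 3 of the 13 tested member probe sets were lower in Ezh2 KO and 0 were higher. They belonged to H2-Ab1, H2-DMa and H2-Oa. Over all tested probe sets 7.98% were called, 3.91% as lower and 4.08% as higher, and with each array centred on its median the 1043 higher and 999 lower calls became 505 and 1088. The 3 member calls were all lost without a filter on intensity, without WT replicate 1 or with a single prior variance. Counting all 16 probe sets, the groups did not overlap in 10, against 45.9% of all probe sets with 1 symbol. In 8 of these the Ezh2 KO arrays were the lower ones, and in the other 2 the WT arrays were. Less RNA per cell and fewer cells of a type cannot be told apart in such bulk samples.

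**Figure D1:**
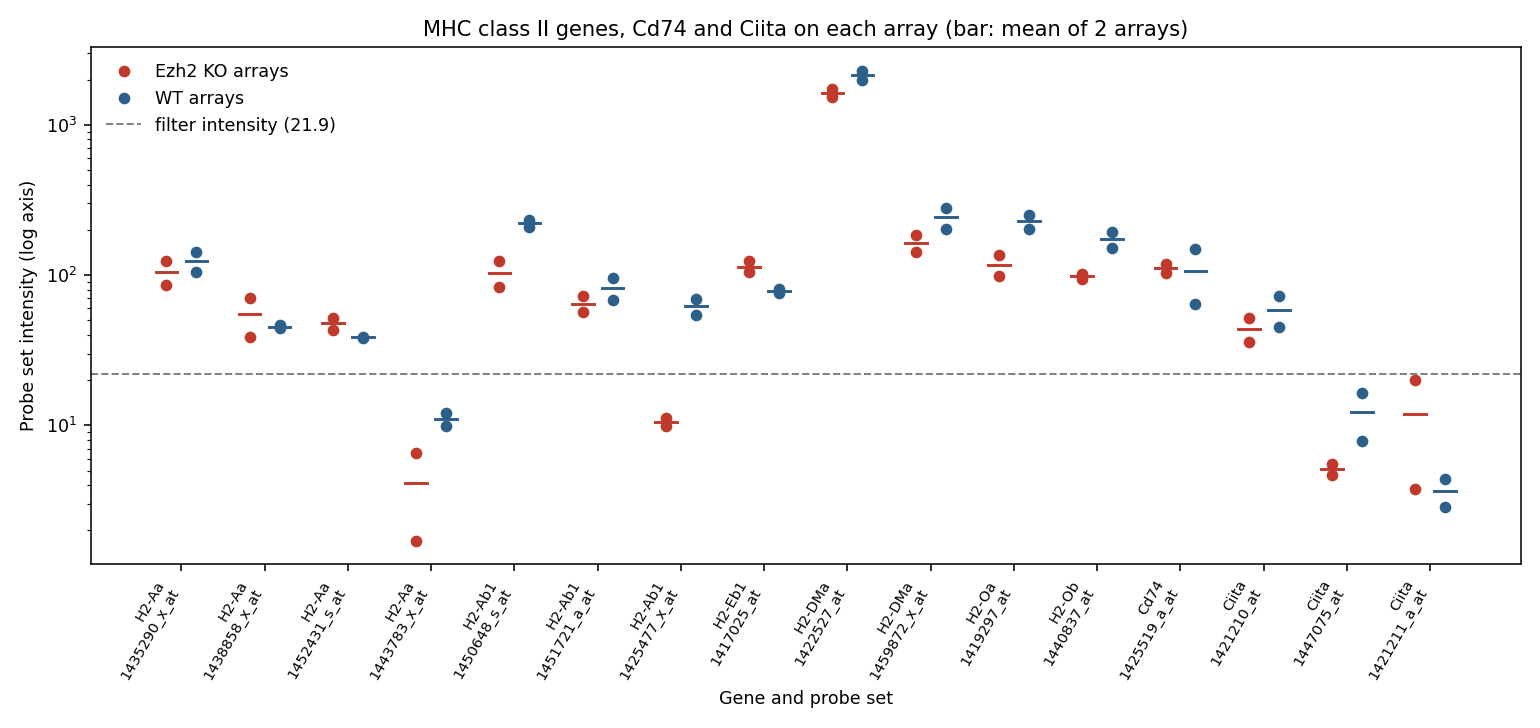
Probe set intensity on a log axis for the 16 member probe sets, with 1 point per array, Ezh2 KO left and WT right, and bars for the mean of 2 arrays. The dashed line marks the filter intensity of 21.9; 3 probe sets lay below it on every array, and H2-DMa 1422527_at stands at the top, between 1539 and 2283.

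The classical chains, which form the peptide-presenting molecules at the cell surface, were led by H2-Ab1, the beta chain of I-A. Its probe set 1450648_s_at read 124 and 83.5 on the Ezh2 KO arrays, against 208 and 234 on the WT arrays. Both knockout arrays lay below both wild-type arrays. H2-Ab1 fell by 1.00 on the log2 scale (SE 0.22, limma adjusted p = 0.0260), which is 2.01-fold lower in Ezh2 KO. The call was lost without WT replicate 1 (adjusted p = 0.0739), WT replicate 2 (0.114) or knockout replicate 2 (0.0625), with log2 changes of -1.08, -0.93 and -0.76 for H2-Ab1.

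The other probe sets of H2-Ab1 did not both give that size of difference. Probe set 1425477_x_at read 9.90 and 11.1 on the Ezh2 KO arrays, below the filter intensity, and 54.3 and 69.4 on the WT arrays. It passed the filter only through its WT values, and its log2 change was -1.55 (SE 0.42, limma adjusted p = 0.0567). That value depended on the pseudocount, being -2.44 at 1 and -0.75 at 64. It passed the threshold in 4 of 13 alternative settings, namely quantile normalization, median centring, a pseudocount of 64 and the replicate number as a block. Probe set 1451721_a_at read 72.1 and 57.1 on the Ezh2 KO arrays and 67.8 and 96.1 on the WT arrays, which overlap (log2 change -0.27, limma adjusted p = 0.675). The suffix x marks probe sets with probes that may also match unrelated transcripts, the suffix s those shared by several transcripts, and the suffix a those shared by variants of 1 gene.

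H2-Aa, the alpha chain that pairs with H2-Ab1, had 4 probe sets and none was called. The brightest, 1435290_x_at, read 85.2 and 123 on the Ezh2 KO arrays and 106 and 143 on the WT arrays. These values overlap, and the 95% interval of the log2 change, -0.81 to 0.36, takes in both directions. Probe set 1438858_x_at read 38.7 and 70.7 in Ezh2 KO and 44.3 and 46.3 in WT, so the knockout arrays lay on either side of the wild-type ones. Probe set 1452431_s_at read 43.4 and 52.2 in Ezh2 KO and 38.2 and 38.9 in WT, with a log2 change of 0.22 (limma adjusted p = 0.788). The last, 1443783_x_at, had 1.71 and 6.60 in Ezh2 KO and 9.91 and 12.2 in WT, all below the filter intensity. The chain partner of H2-Ab1 thus had estimates of either sign among its probe sets. The intervals of its 3 tested probe sets began at -0.81, -0.66 and -0.58, inside the interval of H2-Ab1 1450648_s_at (-1.51 to -0.50), and the difference between the partners was not tested.

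H2-Eb1, the beta chain of I-E, finds no alpha partner in mice of the C57BL/6 strain, whose H2-Ea gene is defective. That is the strain of the recipients, and the strain of the transplanted cells is not given. Probe set 1417025_at of H2-Eb1 read 104 and 123 on the Ezh2 KO arrays and 75.7 and 80.5 on the WT arrays. Here both knockout arrays lay above both wild-type arrays, the opposite of the called H2-Ab1 probe set, but the difference did not pass (log2 change 0.46, 95% interval -0.10 to 1.02, limma adjusted p = 0.330).

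H2-DMa encodes the alpha chain of the peptide exchanger H2-DM and was the member whose probe set lay highest above the filter. Probe set 1422527_at read 1539 and 1735 on the Ezh2 KO arrays, against 2283 and 1976 on the WT arrays. The groups did not overlap, and the gap between them was smaller than the gap between the 2 WT arrays. H2-DMa fell by 0.38 on the log2 scale (SE 0.10, limma adjusted p = 0.0431), or 1.30-fold. The call was lost with quantile normalization (adjusted p = 0.0536), without WT replicate 1 (0.212) and without knockout replicate 1 (0.119). The second probe set, 1459872_x_at, read 143 and 184 in Ezh2 KO and 204 and 281 in WT, again without overlap, at a log2 change of -0.52 that did not pass (limma adjusted p = 0.183).

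H2-Oa and H2-Ob encode the alpha and beta chains of H2-O, the inhibitor of H2-DM, which is best known from B cells and thymic epithelium. H2-Oa, by probe set 1419297_at, read 98.7 and 135 on the Ezh2 KO arrays, against 203 and 251 on the WT arrays. Every knockout value was below every wild-type value. H2-Oa fell by 0.88 on the log2 scale (SE 0.22, limma adjusted p = 0.0373), or 1.84-fold, and lost its call without WT replicate 1 (adjusted p = 0.0661), WT replicate 2 (0.171) or knockout replicate 1 (0.112).

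H2-Ob, by probe set 1440837_at, read 102 and 94.2 on the Ezh2 KO arrays and 151 and 195 on the WT arrays. The groups did not overlap, as for its partner H2-Oa, but the difference did not pass (log2 change -0.72, 95% interval -1.21 to -0.22, limma adjusted p = 0.0842). Its log2 change stayed between -0.88 and -0.54 over the 15 alternative settings, and its lowest adjusted p among them was 0.0541.

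Cd74, the invariant chain, which is abundant in antigen-presenting cells, had 1 probe set, 1425519_a_at. It read 118 and 104 on the Ezh2 KO arrays, against 149 and 64.6 on the WT arrays. The WT arrays enclose the knockout ones, so the 2 WT samples differed from each other more than the groups did. The log2 change was 0.13 (95% interval -0.61 to 0.88, limma adjusted p = 0.868). The estimate was 0.65 without WT replicate 1 and -0.38 without WT replicate 2.

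Ciita, the transactivator, had 3 probe sets, of which 2 were below the filter intensity on all 4 arrays. The third, 1421210_at, read 35.8 and 51.9 on the Ezh2 KO arrays and 72.9 and 44.9 on the WT arrays. The groups overlap, and the 95% interval of the log2 change of -0.31 reaches from -1.13 to 0.51 (limma adjusted p = 0.696). Probe set 1447075_at read 5.58 and 4.66 in Ezh2 KO and 7.92 and 16.5 in WT. Probe set 1421211_a_at read 20.1 and 3.78 in Ezh2 KO and 2.86 and 4.40 in WT, a high value on knockout replicate 1 alone. A change of Ciita was thus not detectable at these signals.

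**Figure D2:**
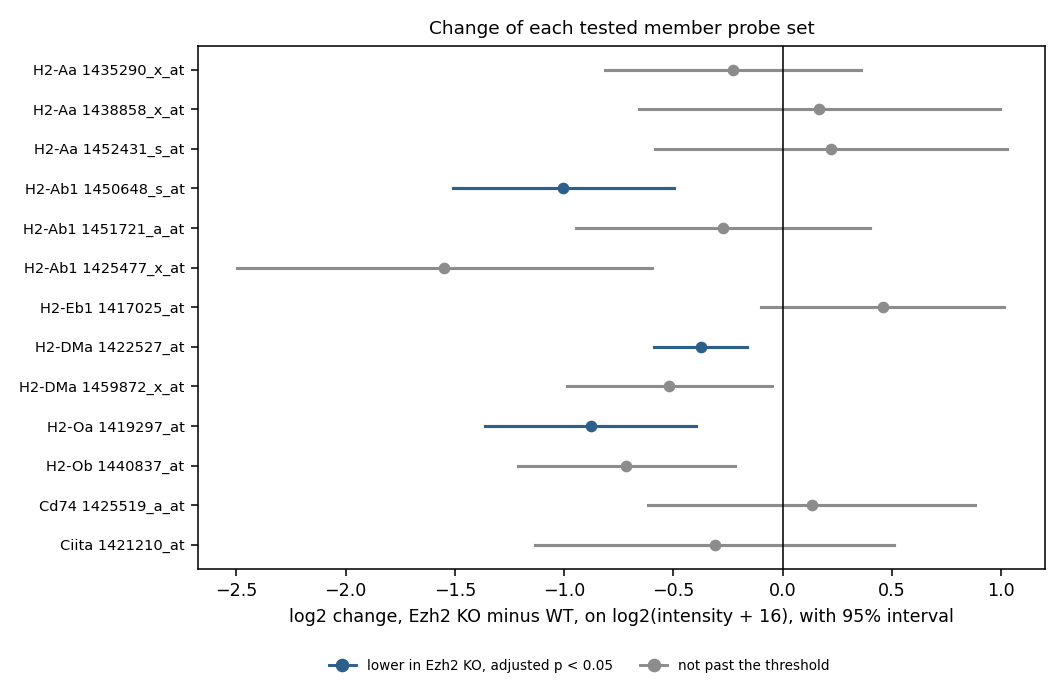
Log2 change, Ezh2 KO minus WT, of the 13 tested member probe sets with 95% intervals from limma; coloured points passed an adjusted p of 0.05. The coloured points are 1 probe set each of H2-Ab1, H2-DMa and H2-Oa, all left of 0, and the 4 points right of 0 belong to H2-Aa (2 probe sets), H2-Eb1 and Cd74.

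Of the 4 members with the pair of motifs, H2-Oa was called lower, and H2-Ob, H2-Aa and H2-Eb1 were not called. The uncalled H2-Eb1 had its highest values in Ezh2 KO. H2-DMa was called lower without the pair. The relation of the letters to the changes was not tested, and H2-Ab1, Ciita and Cd74 have no window here.

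Position is another feature the rule did not use. In the RefSeq annotation H2-Oa, H2-DMa, H2-Ob, H2-Ab1, H2-Aa and H2-Eb1 lie in this order in 1 interval of chromosome 17 that holds 14 genes. Of the 8 other genes between them 6 had a probe set of their own, and 4 of these were called lower. Over all tested probe sets 3.91% were called lower, and with 1 probe set a gene entering the fit 855 of 13928 genes were. The 4 are the immunoproteasome subunits Psmb8 and Psmb9 and the peptide transporter subunits Tap1 and Tap2, which serve class I and not class II presentation. Psmb9 read 1868 and 1910 in Ezh2 KO and 4197 and 3928 in WT, a log2 change of -1.10 (limma adjusted p = 3.09e-05). Psmb8 changed by -1.08, Tap1 by -1.03 and Tap2 by -0.77, with adjusted p-values of 2.92e-05, 0.000235 and 0.000400. Brd2, a bromodomain gene between H2-Oa and H2-DMa, had 0.09 (limma adjusted p = 0.595). This interval was chosen with results known, and its count is a description.

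**Figure D3:**
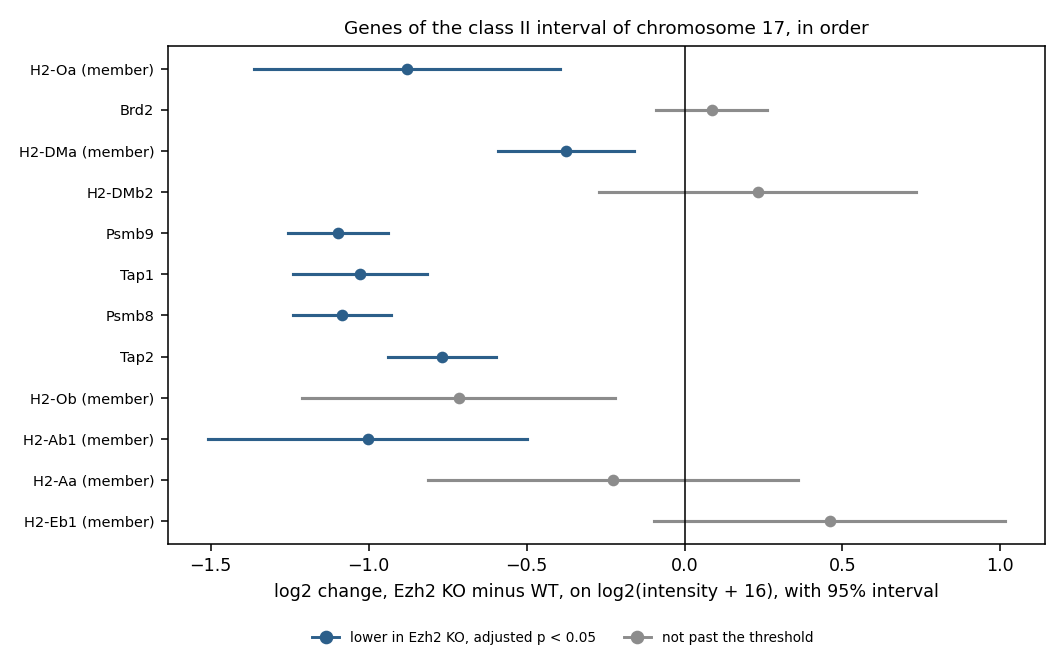
Log2 change, Ezh2 KO minus WT, with 95% intervals from limma for the 12 genes of the chromosome 17 interval that had a probe set of their own, top to bottom in their order along the chromosome. The 4 class I genes Psmb9, Tap1, Psmb8 and Tap2 lie between -1.10 and -0.77, next to H2-Ob on their far side, while Brd2, H2-DMb2 and H2-Eb1 lie right of 0.

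The rest of the class II pathway was followed in 5 lists, each gene by its brightest probe set. Of 37 tested genes 1 was higher and 5 were lower, where 7.98% of all probe sets were called. With 1 probe set a gene entering the fit, 3 were higher and 5 lower, and 11.8% of all genes were called. Among other class II chains, 0 of 3 were called by limma (1 at an unadjusted p under 0.05). That 1 was H2-Ea, named after its values were seen, with 45.9 and 36.1 in Ezh2 KO and 16.9 and 3.27 in WT. Its log2 change was 1.17 (limma adjusted p = 0.212), and it passed the filter only through its Ezh2 KO values. The other H2-Ea probe sets were below the filter intensity on every array. H2-DMb2, a beta chain of H2-DM, had 474 and 454 in Ezh2 KO and 528 and 291 in WT, so the WT arrays enclosed the knockout ones. All 3 of its probe sets had a positive log2 change of at most 0.23, where its partner chain H2-DMa was called lower. The difference between the partners was not tested.

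The factors that bind the X and Y boxes and carry Ciita, namely the RFX and NF-Y subunits and Creb1, were listed with their acetyltransferase partners. Of these 10 genes 0 were called by limma (2 at an unadjusted p under 0.05). Their log2 changes lay between -0.12 and 0.41, with a median of 0.04 (0.03 over all tested probe sets). Creb1, which binds beside RFX on the X box, was the brightest, with 5151 and 4817 in Ezh2 KO and 4327 and 4150 in WT (log2 change 0.23, limma adjusted p = 0.0691). Creb1 was called higher with quantile normalization (limma adjusted p = 0.0498), 1 probe set a gene (0.0467) or the replicate number as a block (0.0189). With median centring its log2 change was 0.14 (limma adjusted p = 0.527). Rfx5, the DNA-binding subunit of RFX, named after its values were seen, had 895 and 923 in Ezh2 KO and 956 and 936 in WT. Its log2 change of -0.06 had a 95% interval of -0.26 to 0.14.

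Of the genes that carry signals to Ciita, 2 of 11 tested were lower and 0 higher, with a median of -0.01. Irf8, an interferon regulatory factor of myeloid cells, had 1370 and 1386 in Ezh2 KO and 2014 and 2085 in WT. It fell by 0.57 on the log2 scale (SE 0.08, limma adjusted p = 0.00199), and a second probe set of Irf8 fell by 0.65. Irf1, which binds the interferon-responsive promoter of Ciita, had 910 and 966 in Ezh2 KO and 1318 and 1377 in WT. Irf1 fell by 0.52 (SE 0.09, limma adjusted p = 0.00640). The interferon gamma receptor chain Ifngr1, the brightest of the list, had 5881 and 5875 in Ezh2 KO and 5973 and 5886 in WT (log2 change -0.01, 95% interval -0.15 to 0.13). Ifng itself, the cytokine, was at 3.07 and 2.49 in Ezh2 KO and 5.91 and 2.53 in WT, below the filter intensity on every array.

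Of 9 tested genes of endosomal antigen processing, 3 were lower and 1 was higher, with a median of -0.05. Whether calls are more frequent there than in the other lists was not tested. Ctss, the cathepsin that trims Cd74 in antigen-presenting cells, read 482 and 485 in Ezh2 KO and 1175 and 1099 in WT. Ctss fell by 1.21 on the log2 scale (SE 0.10, limma adjusted p = 0.000112). Ifi30, the thiol reductase that opens disulfide bonds of antigens, read 757 and 692 in Ezh2 KO and 1563 and 1528 in WT, a log2 change of -1.08 (limma adjusted p = 0.000131). Both knockout values were below both wild-type values in each gene, with a wide gap.

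Cathepsin Z, Ctsz, was also lower, with 9670 and 8711 in Ezh2 KO and 15789 and 11876 in WT (log2 change -0.58, limma adjusted p = 0.0161), and lost its call without a filter (0.0732). Cathepsin H, Ctsh, ran the other way, with 4617 and 4910 in Ezh2 KO and 3218 and 3043 in WT (log2 change 0.60, limma adjusted p = 0.000932). The fifth list, of ubiquitin ligases that remove class II from the surface and of costimulatory molecules, had 0 of 4 tested genes called by limma (1 at an unadjusted p under 0.05) and a median log2 change of 0.57. Its brightest gene Marchf8 read 838 and 822 in Ezh2 KO and 971 and 1142 in WT (log2 change -0.34, limma adjusted p = 0.0783). The other 3, Marchf1, Cd40 and Cd80, named after their values were seen, had log2 changes of 0.75, 0.69 and 0.45, none past the threshold. Their mean intensities over the 4 arrays were only 39.2, 53.3 and 37.9, and the groups overlapped for Marchf1. The positive median of the list comes from these dim probe sets.

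**Figure D4:**
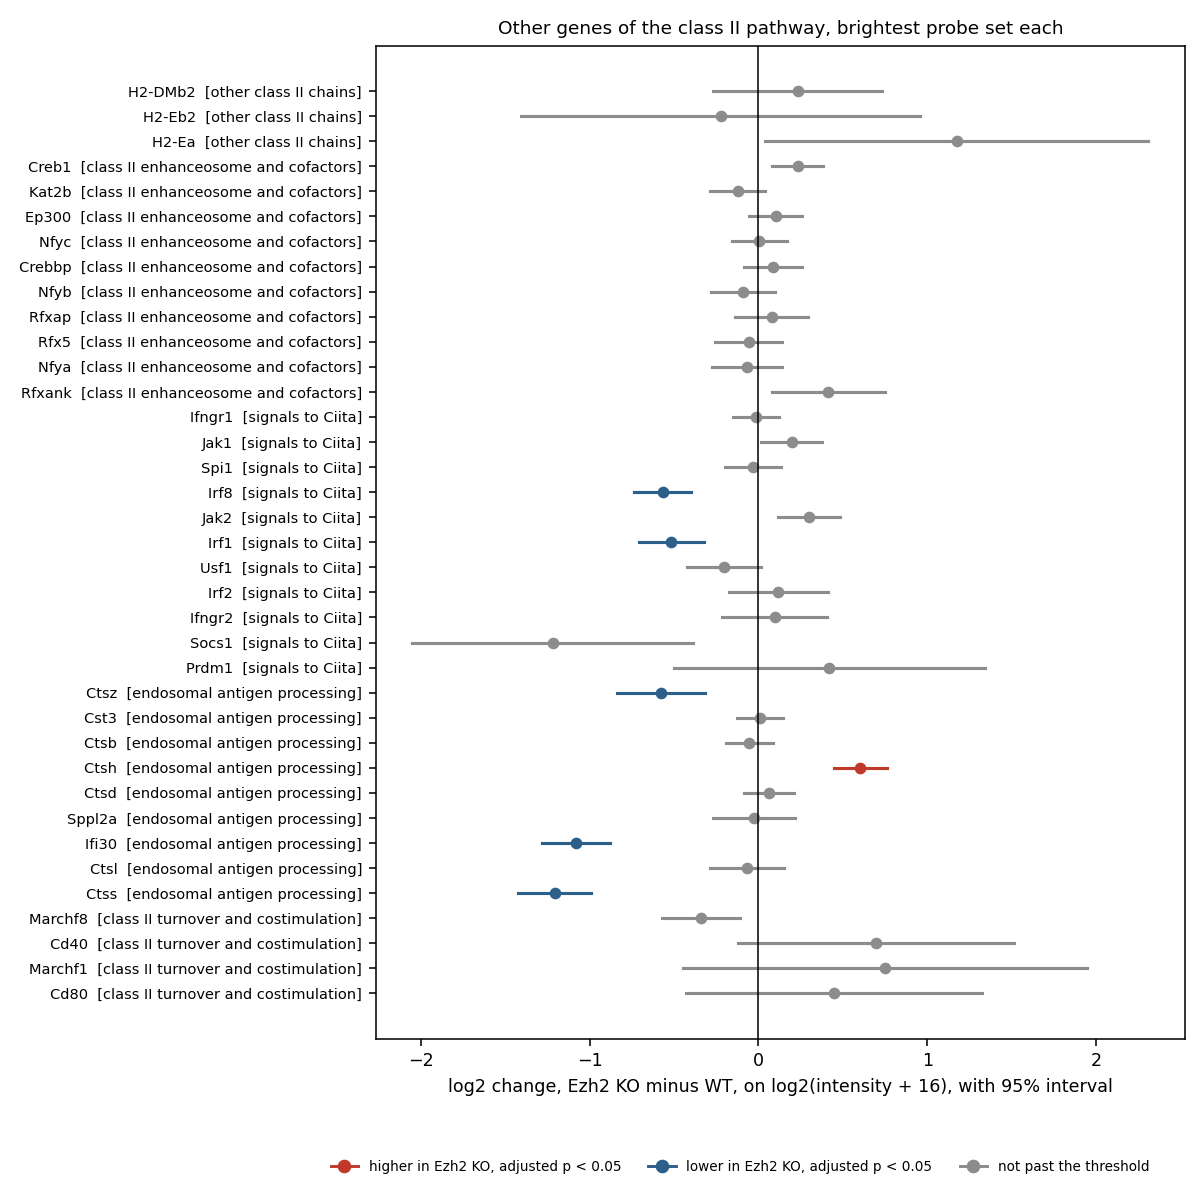
Log2 change, Ezh2 KO minus WT, with 95% intervals from limma for the 37 tested genes of the 5 pathway lists, each by its brightest probe set; coloured points passed an adjusted p of 0.05. Irf8, Irf1, Ctsz, Ifi30 and Ctss lie left of 0 and Ctsh right of it. The X and Y box factors and their acetyltransferase partners, 10 genes together, lie within -0.12 to 0.41.

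Markers of the leukemic cells and of B cells, dendritic cells, macrophages and T cells were followed beside these values, and their part in the differences was not tested. All 12 measured markers of myeloid leukemic cells passed the filter, as did 25580 of the 34945 probe sets with 1 symbol. Mpo, the brightest of these markers, read 36399 and 32237 in Ezh2 KO and 32252 and 32222 in WT. In that list Itgam was higher (log2 change 0.74) and Cebpa and Ctsg were lower (-0.63 and -0.25). Of 11 measured B cell markers 8 were tested and 0 were called by limma (0 at an unadjusted p under 0.05). Their summed intensity was 1278 to 1464 in Ezh2 KO and 1240 to 1252 in WT, most of it from Cd79b (761 and 848 in Ezh2 KO, 763 and 739 in WT). No marker of any list was listed at 0. Ebf1 and Pou2af1 were below the filter intensity on every array, and Cd79a was above it on 1, WT replicate 2, at 22.0.

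Of 10 measured dendritic cell markers 6 were tested. The lectin Clec10a was lower, with 76.1 and 74.1 in Ezh2 KO and 160 and 165 in WT (log2 change -0.97, limma adjusted p = 0.0287), and 0 were higher. Cd209a, a lectin named after its values were seen, ran the other way with 48.2 and 60.4 in Ezh2 KO and 8.42 and 10.97 in WT, but did not pass (log2 change 1.45, limma adjusted p = 0.0805). Cd209a passed the filter only through its Ezh2 KO values. Clec10a and Cd209a were the 2 tested markers at an unadjusted p under 0.05, and the median of the list was 0.11. The summed intensity of that list was 446 to 512 in Ezh2 KO and 459 to 499 in WT, so the groups overlapped. The brightest, the cytokine receptor Flt3, read 153 and 148 in Ezh2 KO and 132 and 142 in WT, and Ccr7 was below the filter intensity on every array.

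Of 12 measured macrophage markers 7 were tested, with 2 higher and 1 lower. The adhesion receptor Vcam1 read 1440 and 1578 in Ezh2 KO and 4817 and 5769 in WT, the growth factor receptor Csf1r 3965 and 4583 in Ezh2 KO and 3057 and 3028 in WT, and the chemokine receptor Cx3cr1 405 and 409 in Ezh2 KO and 280 and 249 in WT. The list summed to 7308 to 8299 in Ezh2 KO and 9857 to 10747 in WT, a difference that follows Vcam1. The complement genes C1qa and C1qc, abundant in resident macrophages, were at 1.09 to 3.16 over the 4 arrays. The third of these genes, C1qb, read 45.3 and 28.2 in Ezh2 KO and 37.3 and 7.88 in WT, above the filter intensity on 3 arrays. Of 10 measured T cell markers, 5 were tested and Cd28 was higher (346 and 341 in Ezh2 KO, 209 and 236 in WT). Its list summed to 537 to 667 in Ezh2 KO and 428 to 470 in WT.

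The genes most alike in pattern were sought by the distance between log2 values centred on their mean over the 4 arrays. Nearest to H2-DMa were Yif1a, Tyw1 and Rad52, at distances of 0.018, 0.020 and 0.029, and nearest to Ciita were Kifc3, Cend1 and Ckb, at 0.060 to 0.069. With 4 arrays such likeness is common: 977 probe sets of other genes lay within 0.2 of H2-DMa and 122 within 0.2 of Ciita.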

How the data were processed

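RNA of 2 Ezh2 KO and 2 WT samples was measured on 1 array each. The deposited values are probe set intensities that the authors made with a tool the submitters' processing notes name as Affymetrix Expression Console. Version and algorithm are not given in the sources used here. Their mean trimmed by 2% at each end was 500 on every array. Groups and replicate numbers came from the sample titles. Of 45101 probe sets, 64 were controls, 34945 had 1 gene symbol, 932 had several and 9160 had none in the annotation. By identifier 34741 matched RefSeq (GRCm38.p6), which changed 0 symbols. Log2(intensity + 16) was fitted by limma 3.58.1 (lmFit, then eBayes with an intensity trend; R 4.3.3) over probe sets with a mean above the 30th percentile (21.9). The test was tried on simulated data with independent normal errors and variances drawn from the fit to these arrays. That trial shares the assumptions of the test and so does not check them. The members, lists and tests were chosen with earlier results of these data known. Named were every member probe set, up to 4 called genes with the largest change and the brightest gene of each list, the 3 genes nearest in pattern, and a few genes a result turns on. Alternatives were 2 other normalizations, pseudocounts of 1 and 64, other filters, other sets of probe sets, other prior variances, the replicate number as a block, and leaving out each array. Arrays correlated at r = 0.982 (WT) and 0.983 (Ezh2 KO) within groups and at 0.973 to 0.977 between them, across 25580 probe sets, which are not independent replicates. Precision is limited by having 4 arrays. Figures were drawn with matplotlib 3.10.9.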

Additional observations from a re-analysis of the deposited data

How the results depend on the processing

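The counts of calls were 3 member probe sets, 2042 of all probe sets and 6 pathway genes. Signals below the filter intensity limit the 3 member probe sets that were not tested. Without a filter on intensity the member count was 0 (5 at an unadjusted p under 0.05) and the count over all probe sets 1229. With a single prior variance limma called 0 member probe sets, 0 of all probe sets and 0 pathway genes, although 5, 4206 and 10 had an unadjusted p under 0.05. Leaving out 1 array gave 0 to 2 member calls and 1112 to 2030 calls over all probe sets, with the fewest members without WT replicate 1. The cause of these shifts was not tested. With the replicate number as a block 3469 probe sets and 4 member probe sets were called. The numbers are not known to pair the samples, whose same-numbered deviations correlated at 0.039. Every other total of higher and lower calls stayed within 1.5 times, though the 1 higher pathway gene became 3 with 1 probe set a gene or the block and 2 with quantile normalization or the filter at the 50th percentile. Median centring gave 505 higher calls over all probe sets in place of 1043, and 0 of the named calls changed direction under any alternative run.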
